A study of Mus musculus with 6 samples.

Results

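The miR-26 family was taken from the small RNA counts of mouse hippocampus as every row named miR-26a or miR-26b, all loci and both arms, which gave 6 rows of the 2035 mature miRNA rows and 109108 rows in all. These 6 rows stand for 5 mature names, because miR-26a-5p is encoded at 2 loci. Small RNA was sequenced from 3 Dicer1-ifKO and 3 WT libraries of C57BL/6 male mice aged 3 months. All mice were homozygous for floxed Dicer1 (Dicer1 flox/flox) and were killed 3 weeks after tamoxifen. Dicer1-ifKO mice also carried CaMKIIa-creERT2, a recombinase that tamoxifen activates in excitatory neurons of the forebrain, and WT mice did not. Each library held RNA pooled in equal amounts from 3 mice, and all tests below therefore rest on the variation among pools. The labels state that recombination was checked by qRT-PCR, and cells without the Cre kept a functional Dicer1 in Dicer1-ifKO hippocampus, which was sequenced whole. In such bulk RNA, fewer cells of a type and less RNA per cell cannot be told apart.

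Dicer1 encodes the ribonuclease that cuts a precursor hairpin into a short duplex, of which usually 1 strand (the guide) is kept in an Argonaute protein and the other (the passenger) is lost. A guide finds its target mRNAs mainly by its seed, bases 2 to 8. The miR-26 hairpins lie in introns of the Ctdsp genes of vertebrates. These genes encode small phosphatases of the C-terminal domain of RNA polymerase II, which act with the repressor REST to keep neuronal genes silent in cells that are not neurons. In zebrafish, miR-26b has been reported to repress its own host gene ctdsp2 as neurons form.

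The sequences show why the family was treated as one seed with 3 sources. The mature strands, from RefSeq on GRCm38.p6, are given 5′ to 3′ with the seed in capitals, and all 6 rows matched RefSeq in position and strand.
miR-26a-5p: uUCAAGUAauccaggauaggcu
miR-26b-5p: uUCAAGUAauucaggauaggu
miR-26a-1-3p: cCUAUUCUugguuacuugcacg
miR-26a-2-3p: cCUGUUCUugauuacuuguuuc
miR-26b-3p: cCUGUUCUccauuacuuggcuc
The 5p strands share the seed, and no other of the 1679 mature names in that table has it. Counted from 1 at the 5′ end and without gaps, miR-26a-5p and miR-26b-5p differ by C11U and C21U over 21 bases, and miR-26a-5p is 1 base longer. Among the 3p strands, miR-26a-2-3p and miR-26b-3p share a seed, and miR-26a-1-3p has a different one through A4G against miR-26a-2-3p. By sequence, reads of miR-26a-5p and miR-26b-5p can be told apart, while reads of miR-26a-5p do not show which of its hairpins they came from. How strictly the authors' alignment kept the 5p strands apart was not tested.

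The hairpins from which these strands are cut are given below with both arms in capitals.
Mir26a-1: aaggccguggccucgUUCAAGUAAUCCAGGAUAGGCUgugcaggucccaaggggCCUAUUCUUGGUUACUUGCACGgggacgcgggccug
Mir26a-2: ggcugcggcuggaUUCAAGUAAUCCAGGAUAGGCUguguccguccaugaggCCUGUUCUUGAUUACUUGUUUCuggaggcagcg
Mir26b: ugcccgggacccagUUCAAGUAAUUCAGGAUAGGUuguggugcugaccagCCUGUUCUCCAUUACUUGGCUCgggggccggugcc
They are 90, 84 and 85 bases long, with 17, 16 and 15 bases between the arms. Mir26a-1 lies at chr9:119031796-119031885, Mir26a-2 at chr10:126995530-126995613 and Mir26b at chr1:74394310-74394394, all on the plus strand of GRCm38 and in the direction of the host gene. In GENCODE M21, Mir26a-1 lies in intron 5 of Ctdspl and Mir26b in intron 4 of Ctdsp1, and no exon of these genes reaches either hairpin. Mir26a-2 lies in intron 5 of the longest Ctdsp2 transcript, and 2 shorter Ctdsp2 transcripts begin at its last base. Mir26b has the shortest intron, at 564 bases against 3283 bases for Mir26a-1 and 1946 bases for Mir26a-2.

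**Figure D1:**
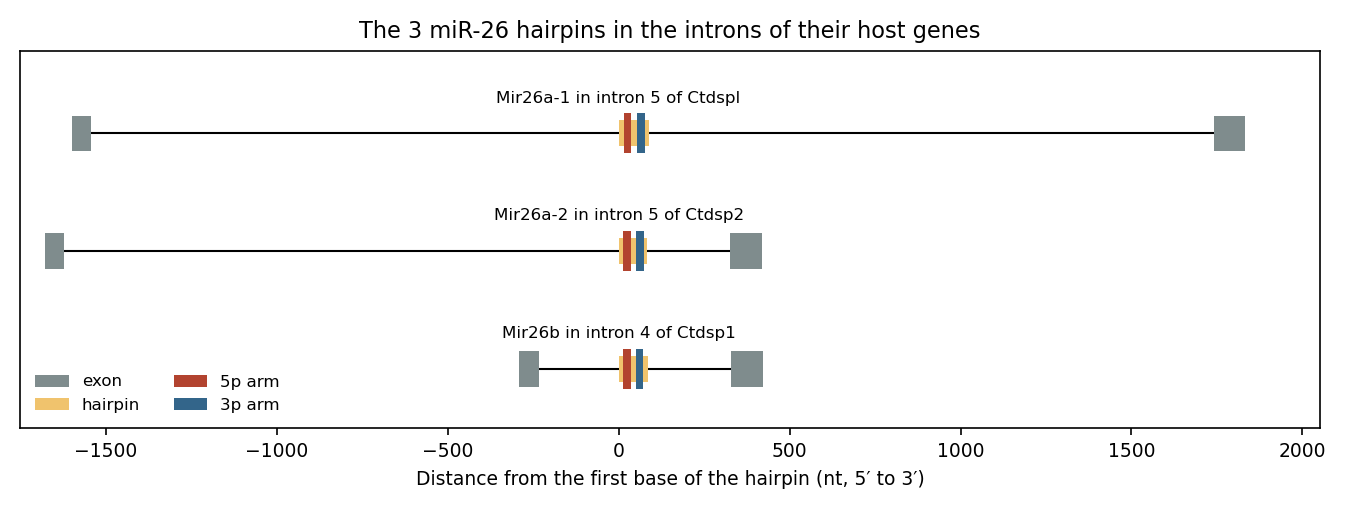
The hairpins in their host introns, drawn to scale by distance in nucleotides from the first base of the hairpin, with exons in grey, the hairpin in yellow, the 5p arm in red and the 3p arm in blue. Mir26b sits 234 and 245 bases from its flanking exons, while Mir26a-1 is 1543 and 1650 bases from its own and Mir26a-2 is 1621 and 241 bases from its own.

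The family was dominated by the guide of the miR-26a hairpins. The counts over both loci of miR-26a-5p were 232853, 270972 and 231400 in Dicer1-ifKO replicates 1, 2 and 3, against 314659, 312092 and 369250 in WT replicates 1, 2 and 3. It ranked second among mature miRNA names in each of the 6 libraries and made up 98.15% to 99.06% of the family's counts. miR-26b-5p, the guide of the Ctdsp1 hairpin, had 4307, 3389 and 3255 counts in Dicer1-ifKO and 3232, 2865 and 4199 counts in WT, and ranked between 60 and 78. The passenger strands were rare. miR-26b-3p had 71, 83 and 77 counts in Dicer1-ifKO and 66, 71 and 93 in WT. miR-26a-2-3p had 3, 15 and 9 counts in Dicer1-ifKO and 19, 14 and 17 in WT, and miR-26a-1-3p had 5, 4 and 3 counts in Dicer1-ifKO and 1, 5 and 3 in WT. The order miR-26a-5p, miR-26b-5p, miR-26b-3p was the same in all 6 libraries, while the order of the miR-26a passengers was not: miR-26a-2-3p exceeded miR-26a-1-3p in 5 libraries and was below it in Dicer1-ifKO replicate 1.

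The locus rows of miR-26a-5p carry no information on which gene made it. The chromosome 9 row held 49.9% to 50.2% of the counts of both rows in every library. The mature sequence is the same in both rows, and the sources used here do not say how the authors divided such reads. The only strands that separate the miR-26a hairpins are their 3p arms, with 21 counts over all libraries for miR-26a-1-3p and 77 for miR-26a-2-3p.

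miR-26a-5p was lower in each Dicer1-ifKO library than in each WT library, but did not pass the test over all features. Its level, in CPM (counts scaled to a common total of all feature counts, with TMM factors from edgeR), was 5616.8, 5095.9 and 4932.7 in Dicer1-ifKO, against 6431.6, 6529.6 and 7956.7 in WT. The groups did not overlap, and the highest library was WT replicate 3. The means were 5215.1 ± 357 CPM in Dicer1-ifKO and 6972.6 ± 854 CPM in WT (SD, n = 3 each), a ratio of 0.748. The log2 change over both loci was -0.42 ± 0.13 (SE), with an adjusted p of 0.22 by edgeR's quasi-likelihood test. It was -0.27 without WT replicate 3, and -0.16 when the miRNA rows set the scaling or were fitted alone. The summed level of the astrocyte markers (miR-29a, miR-29c, miR-204 and miR-1298, 7 of 8 rows tested) was also lower without overlap. It was 1518.2 to 1720.3 CPM in Dicer1-ifKO and 1741.3 to 1971.2 CPM in WT. Most of this sum was miR-29a-3p, which by itself overlapped, at 1204.5 to 1376.8 CPM in Dicer1-ifKO and 1318.1 to 1516.2 CPM in WT. The log2 change was -0.11 for miR-29a-3p and 0.05 for miR-29c-3p. Over the 7 tested rows of the list the median was -0.27, with 5 below 0. Which rows made the sum lower was not tested. Markers of microglia and leukocytes (miR-142, miR-223, miR-146a and miR-150, 4 of 8 rows tested, miR-146a-3p at 0) were higher without overlap, at 200 to 227 CPM in Dicer1-ifKO and 163 to 199 CPM in WT. In both lists 0 rows were called by edgeR, and their part in the level of miR-26a-5p was not tested. Among 546 tested miRNA rows, the median log2 change was -0.24, and 179 rows lay below the chromosome 9 row of miR-26a-5p.

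The Ctdsp1 product miR-26b-5p did not pass the test either, and its estimate lay on the other side of 0. Its level was 104, 63.7 and 69.4 CPM in Dicer1-ifKO and 66.1, 59.9 and 90.5 CPM in WT. The groups overlapped, with Dicer1-ifKO replicate 1 and WT replicate 3 above the other 4 libraries. The log2 change was 0.13 ± 0.22 (SE, edgeR adjusted p = 0.99), which 478 of the 546 miRNA rows lay below. Without Dicer1-ifKO replicate 1 it was -0.12. In the same 2 libraries the summed level of the vessel markers (miR-126a, miR-143 and miR-145a, 5 of 6 rows tested) was highest, at 622 CPM in Dicer1-ifKO replicate 1 and 595 CPM in WT replicate 3, against 459 and 463 CPM in the other Dicer1-ifKO libraries and 400 and 362 CPM in the other WT libraries. The summed oligodendrocyte markers (miR-219a and miR-338, 6 of 6 rows tested) stood likewise at 350 CPM in Dicer1-ifKO replicate 1 and 340 CPM in WT replicate 3, against 218 to 259 CPM in the rest. Some other sums, though not all, were also highest in these libraries. Those of the neuronal markers were 3188.7 CPM in Dicer1-ifKO replicate 1 and 3893.3 CPM in WT replicate 3, against 2539.5 to 3068.5 CPM in the rest. The miR-30 rows summed to 3434.6 and 3613.2 CPM in these libraries, against 2772.1 to 2884.4 CPM in the rest, and the miR-29 rows to 1518.3 and 1639.9 CPM, against 1286.4 to 1444.7 CPM. The astrocyte, microglia and leukocyte, erythrocyte, and let-7 with miR-98 sums were not highest in both. Erythrocyte sums were 197 CPM in Dicer1-ifKO replicate 1 and 207 CPM in WT replicate 3, against 185 to 234 CPM in the rest. The let-7 sum was 4283.8 CPM in Dicer1-ifKO replicate 1, below 4479.9 CPM in WT replicate 1. No row of the vessel, oligodendrocyte or neuronal lists was at 0, and their part in the level of miR-26b-5p was not tested.

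Of the rare strands, miR-26b-3p had groups that overlapped, and miR-26a-2-3p was lower in each Dicer1-ifKO library after scaling. miR-26b-3p stood at 1.71, 1.56 and 1.64 CPM in Dicer1-ifKO and at 1.35, 1.49 and 2 CPM in WT, a log2 change of 0.02 ± 0.20 (SE, edgeR adjusted p = 0.99). miR-26a-2-3p stood at 0.0724, 0.282 and 0.192 CPM in Dicer1-ifKO, against 0.388, 0.293 and 0.366 CPM in WT. These groups did not overlap, though Dicer1-ifKO replicate 2 with 15 counts and WT replicate 2 with 14 counts were level before scaling. Its log2 change of -0.88 ± 0.38 (SE) had an edgeR adjusted p of 0.59. At 3 to 19 counts a library this row is near the limit of what the depth can show, and without Dicer1-ifKO replicate 1 the log2 change was -0.55. miR-26a-1-3p, with 21 counts in all, did not pass the filter on low counts and was not tested.

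**Figure D2:**
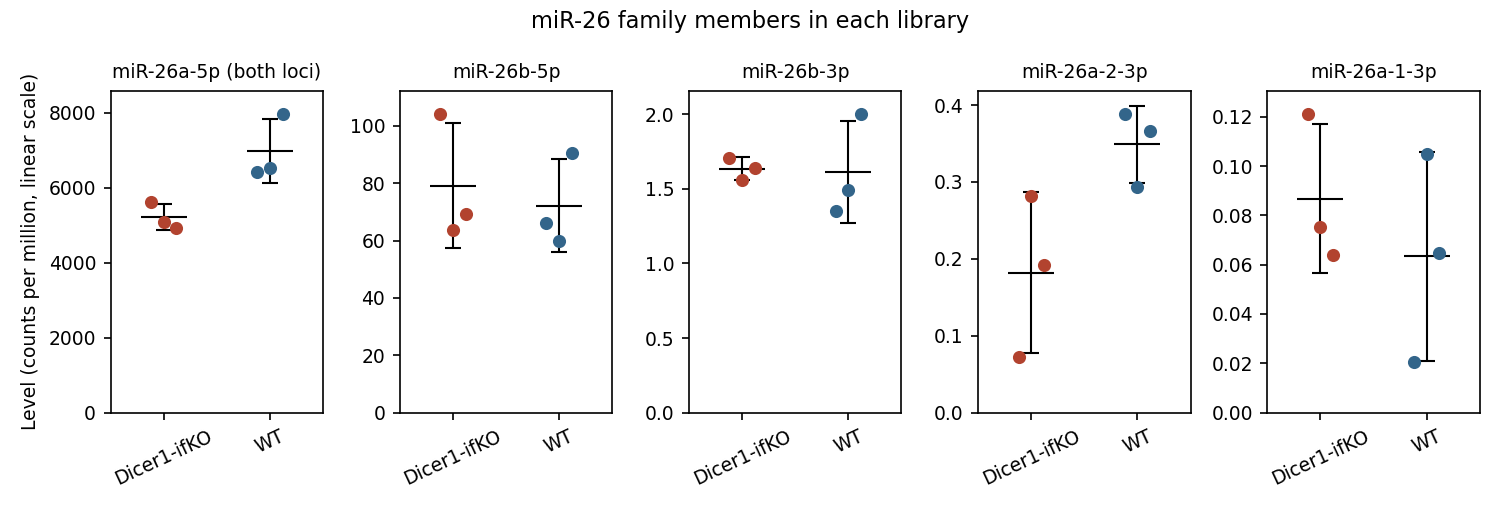
Level in CPM on a linear scale of each mature name of the family, 1 point per library, with the mean and SD of each group as bar and whiskers. miR-26a-5p and miR-26a-2-3p are lower in every Dicer1-ifKO library than in every WT library, while the groups overlap for miR-26b-5p, miR-26b-3p and miR-26a-1-3p.

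Of the 5 tested rows of the family, 0 fell and 0 rose by edgeR at an adjusted p of 0.05. Over all 6539 tested features 0.795% were called lower and 0.0153% higher, and among the 546 miRNA rows 6.59% were called lower and 0% higher. Before adjustment, at a p of 0.05, 3 of the 5 rows passed as lower, the miR-26a-5p rows and miR-26a-2-3p, where 6.47% of all features and 31.1% of miRNA rows did. The same 3 rows were lower without overlap between the groups, as were 9.27% of all features and 33.9% of miRNA rows. The miR-26a-5p rows share 1 pool of reads and count as 1. DESeq2 also called 0 of the 5 rows, though in its fit with summed names it gave miR-26a-2-3p no adjusted p. The 2 miR-26a-5p rows were called only when WT replicate 1 was left out (edgeR adjusted p = 0.045 on chromosome 9 and 0.046 on chromosome 10), and summed over both loci the adjusted p was then 0.059.

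**Figure D3:**
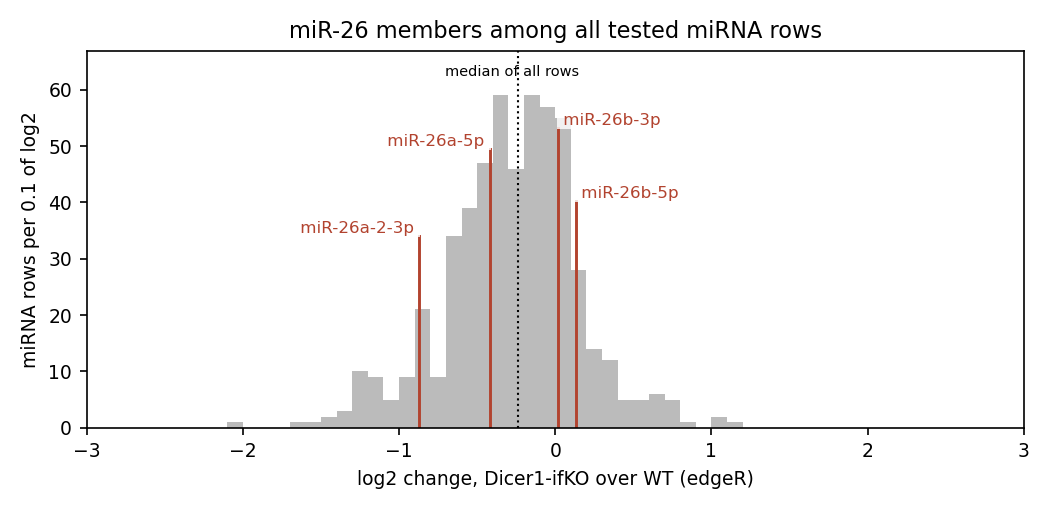
Histogram of the log2 change, Dicer1-ifKO over WT, of the 546 tested miRNA rows in bins of 0.1, with the family's members as red lines and the median of all rows (-0.24) as a dotted line. miR-26a-2-3p (-0.87 in this fit of single rows) and miR-26a-5p (-0.42) lie left of the median, and miR-26b-3p (0.02) and miR-26b-5p (0.13) right of it.

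Set against each other within a library, which takes the library scaling out, miR-26a-5p stood lower against miR-26b-5p in every Dicer1-ifKO library. There were 54.1, 80.0 and 71.1 counts of miR-26a-5p for each count of miR-26b-5p in Dicer1-ifKO, against 97.4, 109 and 87.9 in WT. The groups did not overlap, and the lowest ratio was that of Dicer1-ifKO replicate 1. On the log2 scale the mean ratio was 6.08 ± 0.29 in Dicer1-ifKO and 6.61 ± 0.15 in WT (SD, n = 3 each), a difference of -0.53 ± 0.19 (SE) or a fold of 0.691. The two-sided exact permutation test gave p = 0.1, the smallest that 3 against 3 libraries allow, and p = 0.16 after adjustment over 8 ratios and shares. Without Dicer1-ifKO replicate 1 the difference was -0.37.

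The trend of miRNA levels with GC content differed between libraries, and was steepest in Dicer1-ifKO replicate 1 and WT replicate 2. The guides set against each other above differ in GC content (40.9% for miR-26a-5p and 33.3% for miR-26b-5p). Over 312 other miRNA names with a sequence and a mean of at least 50 counts, the level changed by -0.14, -0.02 and -0.01 on the log2 scale for each 10% of GC in Dicer1-ifKO replicates 1, 2 and 3, relative to the mean of all libraries, against 0.04, 0.14 and -0.01 in WT. With each library's linear trend removed, an alternative chosen after the data were seen, the ratio of miR-26a-5p to miR-26b-5p was 58.2, 80.6 and 71.6 in Dicer1-ifKO, against 95.3, 101 and 88.6 in WT. The groups still did not overlap, and the difference was -0.45 on the log2 scale (exact permutation p = 0.1).

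Within the hairpins, the groups overlapped in the share of the passenger strand. Of the reads of Mir26b, miR-26b-3p took 1.62% (95% exact binomial interval 1.27% to 2.04%), 2.39% (1.91% to 2.95%) and 2.31% (1.83% to 2.88%) in Dicer1-ifKO, against 2.00% (1.55% to 2.54%), 2.42% (1.89% to 3.04%) and 2.17% (1.75% to 2.65%) in WT. The intervals overlap and cover counting error only. The log2 ratio of 3p to 5p differed by -0.08 ± 0.20 (SE, exact permutation p = 0.8). In the miR-26a hairpins together, the 3p arms took 0.00344%, 0.00701% and 0.00519% of the reads in Dicer1-ifKO, against 0.00636%, 0.00609% and 0.00542% in WT. The share of Mir26b was 472, 341 and 446 times that of the miR-26a hairpins in Dicer1-ifKO, against 315, 397 and 400 times in WT. Taken singly, the log2 ratio of 3p to 5p differed by 0.97 ± 0.58 in Mir26a-1 (SE, exact permutation p = 0.3). In Mir26a-2 it differed by -0.65 ± 0.6 (SE, exact permutation p = 0.4), and the groups overlapped in both. These ratios do not set the miR-26a hairpins apart, since their 5p rows share 1 pool of reads and their 3p counts are few.

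The family held a smaller share of all miRNA counts in each Dicer1-ifKO library than in each WT library. Its rows held 10.23%, 10.02% and 9.843% of the miRNA counts in Dicer1-ifKO, against 11.67%, 10.9% and 11.75% in WT. The difference of the means was -1.41 percentage points ± 0.29 (SE, exact permutation p = 0.1, adjusted p = 0.16 over 8). Counted with 1 row per mature name it was -0.84 percentage points, with 1 of the 2 miR-26a-5p rows left out. The share, like the ratios to other families below, rests almost wholly on miR-26a-5p. The share of miR-26b-5p alone overlapped between groups, at 0.186%, 0.124% and 0.136% in Dicer1-ifKO and 0.119%, 0.0991% and 0.132% in WT.

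miR-26 was also set against abundant families that most cell types express. Of these, miR-29a and miR-29c also stand in the astrocyte list above, so the miR-29 ratio and the astrocyte sum share counts. The ratio of miR-26 to the miR-30 family, whose members regulate differentiation in many tissues, was 0.77, 0.93 and 0.83 on the log2 scale in Dicer1-ifKO, against 1.22, 1.25 and 1.19 in WT. The difference of -0.38 ± 0.05 (SE) compares with SDs of 0.08 in Dicer1-ifKO and 0.03 in WT. Against miR-29, which targets collagen and DNA methyltransferase mRNAs, the log2 ratio was 1.92, 2.01 and 1.84 in Dicer1-ifKO and 2.2, 2.19 and 2.3 in WT, a difference of -0.31 ± 0.06. Against let-7 with miR-98, a family that marks differentiated cells, it was 0.45, 0.55 and 0.43 in Dicer1-ifKO and 0.57, 0.75 and 0.62 in WT, a difference of -0.17 ± 0.06. All 3 ratios were lower in each Dicer1-ifKO library than in each WT library, with an exact permutation p = 0.1 each and p = 0.16 after adjustment.

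The most counted members of those families had log2 changes nearer to 0 than that of miR-26a-5p, with let-7c-5p the closest to it. They were -0.11 ± 0.12 (SE) for miR-29a-3p, 0.05 ± 0.20 for miR-29c-3p, -0.13 ± 0.13 for miR-30d-5p, 0.10 ± 0.18 for miR-30a-5p, -0.36 ± 0.12 for let-7c-5p and 0.09 ± 0.25 for let-7f-5p. None of these passed, with edgeR adjusted p from 0.35 to 0.99. By row, 0 of 7 tested miR-29 rows, 0 of 12 miR-30 rows and 0 of 25 let-7 and miR-98 rows fell or rose. With 1 value per mature name, the median log2 change was -0.20 over the 4 tested miR-26 names, against -0.08 over 6 miR-29 names, -0.08 over 11 miR-30 names, -0.17 over 22 let-7 and miR-98 names and -0.25 over all 509 tested miRNA names. By name the miR-26 median thus lay beside those of let-7 and of all miRNAs, between -0.42 for miR-26a-5p and 0.02 for miR-26b-3p. By row, where miR-26a-5p enters at both loci, it was -0.42. The medians by row were then -0.18 for let-7 with miR-98 and -0.24 for all miRNAs.

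**Figure D4:**
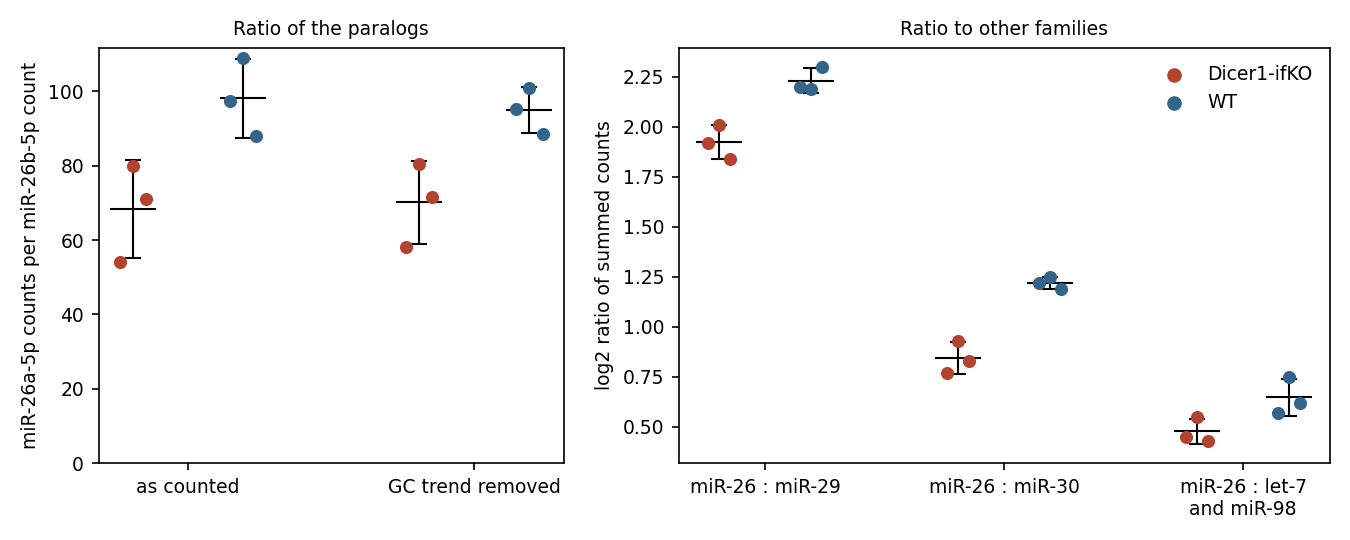
Left, counts of miR-26a-5p per count of miR-26b-5p in each library, as counted and with each library's GC trend removed. Right, log2 ratio of summed miR-26 guide counts to those of 3 other families, with points for libraries and bars for the mean and SD. In all 5 pairs the Dicer1-ifKO libraries lie below the WT libraries.

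Some other miRNAs had nearly the same profile over the 6 libraries as miR-26a-5p. Likeness was the root mean square difference between log2 levels, each centred on its own mean, over 358 other miRNA names with a mean of at least 50 counts. The closest were miR-128-3p (0.0406), a neuronal miRNA from introns of R3hdm1 and Arpp21, and miR-103-3p (0.0424) and miR-107-3p (0.0546), which lie in introns of the Pank genes. miR-381-3p (0.0562), of the Dlk1-Dio3 cluster, and miR-425-5p (0.0582) followed. Their log2 changes were -0.47 ± 0.13, -0.40 ± 0.15, -0.35 ± 0.15, -0.48 ± 0.13 and -0.34 ± 0.16 (SE), and none passed (edgeR adjusted p from 0.15 to 0.67). Since these names were picked for likeness over the same libraries, log2 changes near that of miR-26a-5p follow from the choice. miR-26b-5p, with a difference of 0.327, was farther from miR-26a-5p than 287 of those 358 names.

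The host genes themselves could hardly be read from these libraries. The Ctdspl span held 116433, 135559 and 115876 counts in Dicer1-ifKO and 158077, 156534 and 184484 in WT, of which 99.969% over all libraries were counts of the miR-26 rows inside it. The share was 99.994% for the Ctdsp2 span and 99.972% for Ctdsp1. Less the miRNA counts, Ctdspl kept 43, 38 and 30 counts in Dicer1-ifKO, against 64, 48 and 43 in WT, where Dicer1-ifKO replicate 1 and WT replicate 3 were equal. The log2 change was -0.45 ± 0.24 (SE, edgeR adjusted p = 0.77), and without Dicer1-ifKO replicate 3 it was -0.28, against -0.68 without Dicer1-ifKO replicate 1. Ctdsp2 kept 13, 9 and 7 counts in Dicer1-ifKO and 10, 6 and 9 in WT, and Ctdsp1 kept 2, 0 and 4 in Dicer1-ifKO and 0 in each WT library, so neither passed the filter on low counts. What the counts left in these spans are was not examined, since the position and strand of single reads are not given. The log2 changes of the spans as listed (-0.42, -0.42 and 0.13) are those of the miRNAs.

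The wider lists gave no call. Of 8 CTDSP and REST repressor genes, the 3 hosts passed the filter as listed, and 0 were called. The others, Ctdspl2, Rest, Rcor1, Rcor2 and Sin3a, had 3 to 25 counts over all libraries. Of 14 miRNA biogenesis genes, 4 were tested and 0 were called in either direction. These were Dgcr8, the RNA-binding partner of the hairpin-cropping enzyme Drosha (log2 -0.33 ± 0.22 SE), Eif2c4, an Argonaute (-0.01 ± 0.27), Zcchc11, a uridyltransferase reported to tail miR-26 in cultured cells (-0.15 ± 0.48), and Dicer1. Dicer1 had 37, 32 and 35 counts in Dicer1-ifKO and 45, 33 and 47 in WT over its whole span (log2 -0.24 ± 0.24 SE), which does not resolve the floxed part and so checks no genotype label.

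The libraries held 2318205 to 2739366 miRNA counts in Dicer1-ifKO and 2724752 to 3179363 in WT. The neuronal markers (miR-124, miR-9, miR-128, miR-138 and miR-137) were present in all libraries, with 22 of 22 rows tested, overlapping sums (2539.5 to 3188.7 CPM in Dicer1-ifKO and 3031.7 to 3893.3 CPM in WT), and 0 rows called in either direction by edgeR. Erythrocyte markers (miR-451a, miR-144 and miR-486, 5 of 5 rows tested) overlapped too, at 185 to 226 CPM in Dicer1-ifKO and 207 to 234 CPM in WT. The result for miR-26a-5p depended on the scaling. When the miRNA rows set it, the median of all tested features moved from -0.05 to 0.19, that of the miRNA rows from -0.24 to 0.0013, and the log2 change of miR-26a-5p over both loci was -0.16 and that of miR-26b-5p 0.38 (edgeR adjusted p = 0.70 and 0.50). Under that scaling the astrocyte sums overlapped (1698.7 to 1820.0 CPM in Dicer1-ifKO and 1559.8 to 1753.7 CPM in WT), and the sums of the microglia and leukocyte, vessel and oligodendrocyte lists were higher without overlap.

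**Figure D5:**
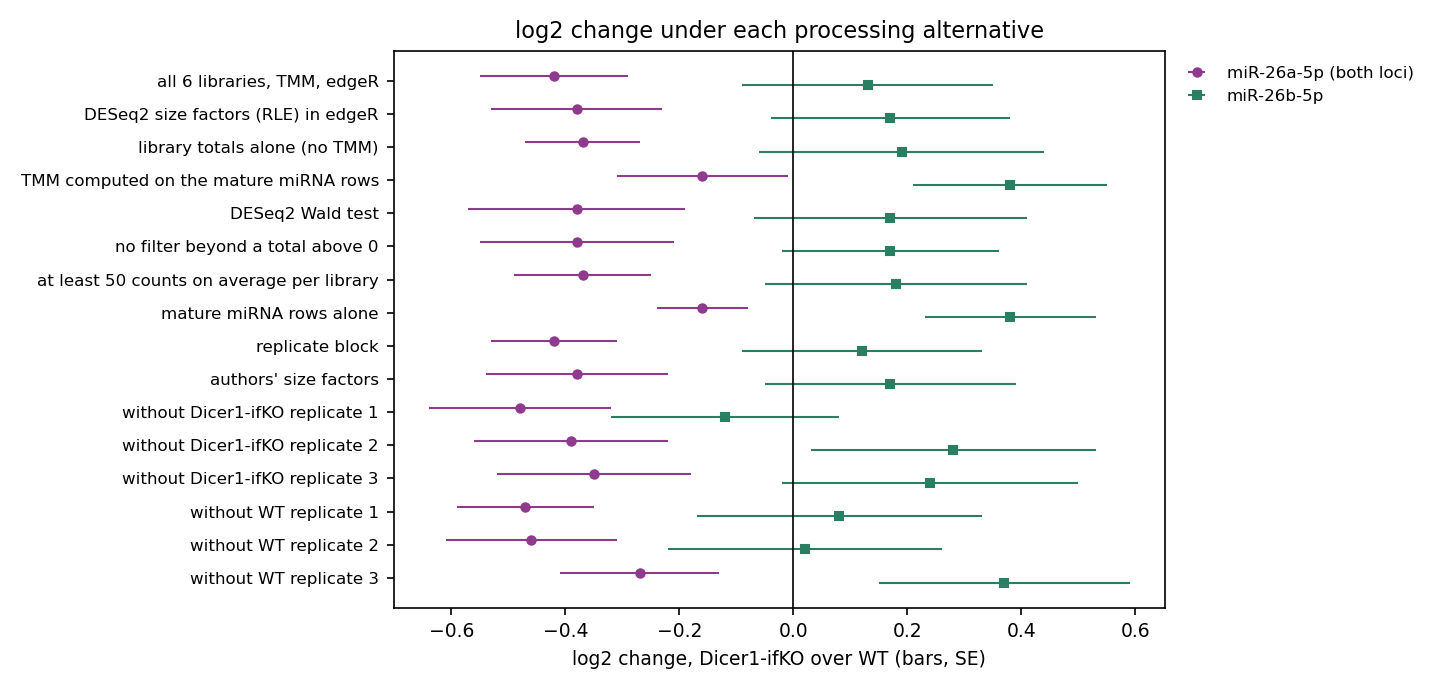
The log2 change, Dicer1-ifKO over WT, of miR-26a-5p summed over both loci and of miR-26b-5p, with SE as bars, under each processing alternative down the page. miR-26a-5p lies below 0 in every row, from -0.48 to -0.16, and miR-26b-5p lies above 0 in every row except without Dicer1-ifKO replicate 1 (-0.12).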

How the data were processed

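Small RNA libraries (Illumina TruSeq small RNA, HiSeq) were made from pooled hippocampal RNA, per the labels' protocols. Per genotype the pools account for 9 mice, and the design text counts 12. Each deposited file holds raw read counts per feature and a normalized signal, which the authors made by multiplying the counts of a library by 1 constant, as the deposited values show. The signal was used only for those constants. Tools listed in the submitters' processing notes, with no roles, are BWA, CASAVA 1.8.2, DESeq2 and SAMtools 0.1.18, and the build is mm10 (GRCm38). Not given in the sources used here are the counter, whether it used strand, and what it did with reads that align at several places. Features overlap and a read counts in each, so summed counts (55101387 to 77428956) are not read depth.

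Rows of 1 gene and chromosome with the same counts in all libraries were kept once (13611 dropped). edgeR 4.0.16 in R 4.3.3 was run on 6539 features: filterByExpr (minimum count 10), TMM, robust glmQLFit, two-sided glmQLFTest, Benjamini-Hochberg over all tested features and a threshold of 0.05. The fit was tested on simulated data. For a mature name with several loci, the rows of every such name were summed and the fit repeated. Each SE is the absolute log2 change divided by the square root of F. Ratios and shares (pseudocount 0.5 for arms) were tested with exact two-sided permutation tests (scipy 1.17.1, 6 libraries), where 0.1 is the smallest p. Host spans were the most counted span of each gene. The named genes were all members, the hosts, Dicer1, the 5 miRNAs most like miR-26a-5p over the libraries (log2 of CPM plus 0.1), and the 2 most counted members of each comparator family. Members and lists were chosen with earlier results of these data known. Within a genotype, libraries differed by more than counting noise (chi-square per degree of freedom of at least 21.99 over miRNA rows), and none was a repeat. Alternatives were other scalings and filters, DESeq2 1.42.0, a fit of the miRNA rows alone, a replicate block and leaving out each library, and, added after the data were seen, the authors' constants and removal of a GC trend.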

Additional observations from a re-analysis of the deposited data

How the results depend on the processing

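The log2 change of miR-26a-5p over both loci stayed negative under all 15 alternatives, and its adjusted p stayed above 0.05 in each (0.059 to 0.94), ranging from -0.48 to -0.27 with 1 library left out. The count of called miR-26 rows was 0, and 0 to 2 with 1 library left out. The number of features called in all, 53 in the full fit, was 23 on library totals alone, 12 with TMM on the miRNA rows, 6 with the replicate block, and 1 to 143 with 1 library left out. The fit of miRNA rows alone called 36 lower and 11 higher, against 36 lower and 0 higher among miRNA rows in the full fit. These causes were not tested. Small changes turned round when a library was left out: miR-26b-5p was -0.12 without Dicer1-ifKO replicate 1 (-0.12 to 0.37 over the fits that leave out 1 library), miR-26b-3p (-0.08 to 0.25) was -0.02 without Dicer1-ifKO replicate 1, -0.08 without WT replicate 1 and -0.03 without WT replicate 2, and the arm ratio of Mir26b was 0.10 without Dicer1-ifKO replicate 1 (-0.18 to 0.10 over all such fits). The difference in the ratio of miR-26a-5p to miR-26b-5p ran from -0.66 to -0.37, in the miR-26 share of miRNA counts from -1.68 to -1.25 percentage points, and in the ratios to miR-29, miR-30 and let-7 from -0.35 to -0.27, -0.42 to -0.34 and -0.21 to -0.12. The GC trend was not removed from the miR-30 ratio, since RefSeq sequences of some members were not used here. Deviations of same-numbered libraries from their group means correlated at -0.18, 0.0754 and -0.157 over all tested features, and at -0.0465, 0.255 and -0.26 over miRNA rows. Over miRNA rows, those of Dicer1-ifKO replicate 1 and WT replicate 3 correlated at 0.426. Such correlations cannot show whether same-numbered libraries shared a preparation. With the replicate block miR-26a-5p was -0.42 (edgeR adjusted p = 0.29). Depth limits the 3p arms of the miR-26a hairpins, at 1 to 19 counts a library.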
